A study of Mus musculus with 8 samples.

Results

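The genes described here encode the machinery that shortens poly(A) tails and removes the cap of mRNA: Btg4, the CCR4-NOT genes Cnot1, Cnot6, Cnot6l, Cnot7 and Cnot8, the RNA-binding protein gene Zfp36l2, the decapping genes Dcp1a and Dcp2, and Pan2. These 10 genes were looked up by symbol in both deposited tables, and 9 of the 10 were present in each. In all, 8898 genes were listed for HA and 10530 for input, with 8537 in common. Cnot7 was in neither table, so only its annotation and sequence are described.

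The samples were MII oocytes, which are arrested at metaphase of the second meiotic division and ready to be fertilized. They came from RiboTagF/F;Zp3-Cre females of the C57BL/6 strain, in which Cre driven by the Zp3 promoter turns on an HA-tagged ribosomal protein Rpl22 in growing oocytes, so that ribosomes can be pulled down with an HA antibody. Young mice were 1 month old and old mice, retired breeders, were 12 to 15 months old. All females carried the tag and all received 5 IU PMSG, then 10 IU hCG 48 h later, and oocytes were collected 13 h after hCG. For each age there were 2 pools of 200 oocytes, and each lysate gave an input library (total RNA, from 10% of the lysate) and an HA library (ribosome-bound RNA). The study calls the 2 samples of an age biologically independent, within a single experiment, and how many females gave a pool is not given in the sources used here.

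Oocytes that resume meiosis make almost no new RNA, so the amount of an mRNA is set by what was stored and by how fast it is degraded, and protein output by which stored mRNAs are on ribosomes. In the CCR4-NOT complex CNOT1 is the scaffold, and 2 kinds of nuclease subunit do the trimming: CNOT6 or CNOT6L, and CNOT7 or CNOT8. BTG4 is an oocyte adaptor that brings the complex to maternal mRNAs during maturation. ZFP36L2 recruits it to AU-rich elements, PAN2 works with PAN3 as another deadenylase, and DCP2 removes the cap with DCP1A as its activator.

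Reads assigned to genes numbered 37817382 to 59688578 in the HA libraries and 38276453 to 60052814 in the input libraries. A count of 3 reads corresponded to 0.0388 to 0.111 CPM in HA and to 0.0435 to 0.0788 CPM in input. The deposited CPM are TMM-scaled, separately for HA and input, and summed to 771444 and 831404 in the young HA libraries but to 1115494 and 1397708 in the old ones. Replicate pools ranked genes with a Spearman rho of 0.837 in young HA, 0.692 in old HA, 0.890 in young input and 0.823 in old input. Old HA was thus the least repeatable pair. Of the 12 oocyte markers, 11 were in both tables (Figla was not), with sums of 9530 to 10843 CPM in input and 11892 to 18247 CPM in HA. Of the 15 granulosa and cumulus cell markers, 10 were in the input table, with sums of 134 and 239 CPM in the young and 35.7 and 134 CPM in the old pools, and 4 were in the HA table, with sums of 158 and 185 CPM in the young and 84.7 and 85.3 CPM in the old pools. Amh, Foxl2 and Cyp11a1 were in neither table, and neither was any of the 6 blood and immune cell markers. The part of follicle cell RNA in the values below was not tested. In such bulk samples, fewer cells of a type and less RNA per cell cannot be told apart.

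Ribosome loading in the maturing oocyte is controlled in large part through cytoplasmic polyadenylation elements (CPEs) in the 3′-UTR, which bind CPEB1. CPEs were searched as TTTTAT or TTTTAAT on the mRNA strand in each gene's longest 3′-UTR in the annotation, counting every start, also where matches overlap each other or another motif. A window is shown for Btg4, for the Cnot6 and Cnot6l pair, and for Dcp1a and Pan2, the genes on which the HA and TE comparisons below turn. It holds the CPE nearest upstream of the poly(A) signal, or the last CPE where there is no such signal, in capitals. These are GENCODE sequences of build GRCm38, written 5′ to 3′, each inside the 3′-UTR of its gene.
Btg4 (chr9:51119797-51119826, plus strand): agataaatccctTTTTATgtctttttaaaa
Cnot6 (chr11:49672226-49672255, minus strand): ttttgtttgtacTTTTATttgatttggtgt
Cnot6l (chr5:96072106-96072135, minus strand): ttaaatgttgacTTTTATggtgcagcctat
Dcp1a (chr14:30526985-30527014, plus strand): tttcatcctaaaTTTTATatgtttgcaaat
Pan2 (chr10:128321305-128321334, plus strand): taaaacagcatgTTTTATaaaataaaagta

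All 10 genes held at least 1 CPE, as did 70.3% of the 8190 HA-table genes with an annotated 3′-UTR. The 3′-UTRs differed widely in length around the median of 1311 bases, from 521 bases in Btg4 and 588 in Pan2 to 6847 in Cnot6l and 7240 in Dcp2. Btg4 held 5 CPEs, the last 61 bases from its end, whereas Cnot6l held 16, the last 1785 bases from its end. Cnot1 held 2, Pan2 3, Zfp36l2 4, Dcp1a 7, Cnot6 and Cnot7 9 each and Dcp2 12. The annotated 3′ end of Cnot8 is incomplete, and 1 CPE lay in the part given. A CPE within 100 bases upstream of a poly(A) signal (AATAAA or ATTAAA in the last 50 bases) was found in Dcp1a, at 22 bases, and Pan2, at 2 bases, against 17.7% of genes. Btg4 and Cnot1 have no such poly(A) signal in their last 50 bases. The AU-rich element TATTTAT, which 34.3% of genes hold, occurred 3 times each in Cnot6l and in Zfp36l2 itself. It occurred 2 times each in Cnot6 and Dcp2 and 1 time each in Cnot7, Cnot8 and Dcp1a. The Pumilio element TGTANATA, held by 30.5%, occurred 2 times each in Cnot7 and Dcp1a. It occurred 1 time each in Cnot1, Cnot6l, Cnot8 and Dcp2, and Btg4 and Pan2 held neither element. A match describes the letters only, not a bound site.

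Reads were counted over whole gene features, so annotated exon length is only an approximate divisor, also where another gene overlaps. Per kilobase of annotated exon, Dcp1a lay highest in the input, at 300 to 364 CPM per kb over the 4 pools. By mean CPM, not per length, it held rank 21 of the 10530 genes. In the order of mean CPM, Btg4 followed at 236 to 350 CPM per kb, a range that overlaps that of Dcp1a. Then came Cnot6l at 58.9 to 70.2 and Cnot1 at 28.9 to 30.8, separate from Dcp1a and Btg4 and from each other. Dcp2 (27.4 to 42.6 CPM per kb) overlapped with Cnot1, and Pan2 (7.17 to 27.4) touched the lower end of Dcp2. Per length, the mean of Dcp2 was below that of Cnot1 in young pools (27.5 against 29.9 CPM per kb). It was above that of Cnot1 in old pools (37 against 29.8). Cnot6, Cnot8 and Zfp36l2 overlapped with one another at 0.583 to 5.05 CPM per kb. In HA the order by mean CPM was the same down to Cnot1, with Dcp1a at rank 7 of 8898 genes. Pan2 and Dcp2 swapped places there, as did Cnot8 and Cnot6, and each of these neighbours overlapped. Cnot1 (24.8 to 54.2 CPM per kb) and Pan2 (10.1 to 55.4) overlapped as well, and by the median per length Pan2 lay above Cnot1.

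**Figure D1:**
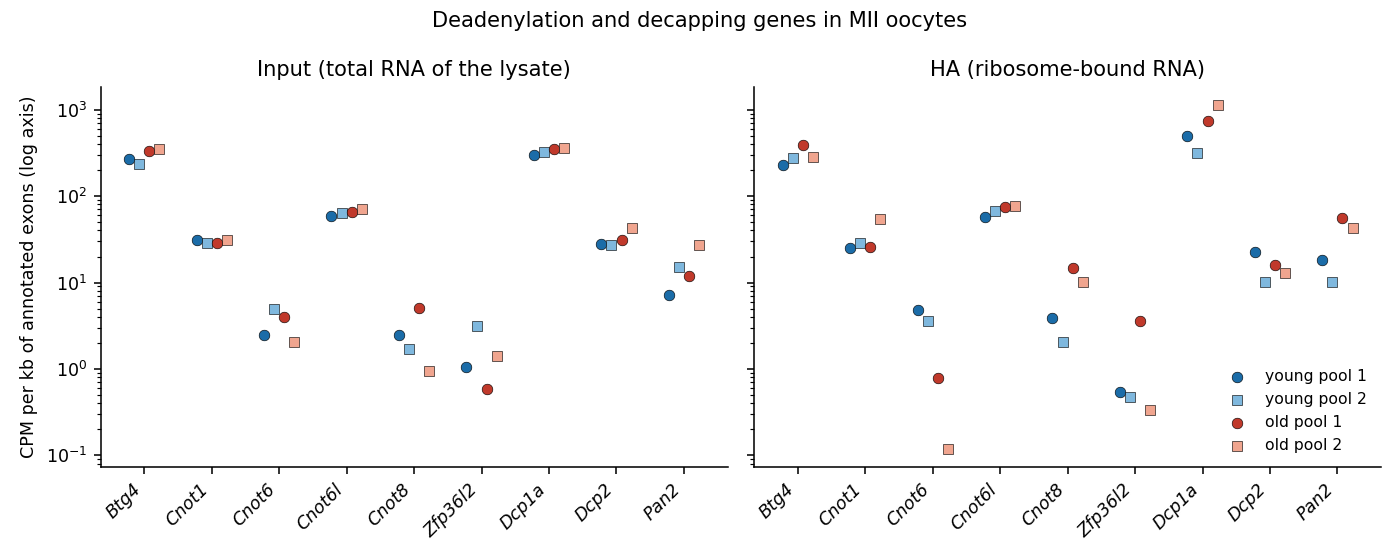
CPM per kb of annotated exons (log axis) of the 9 measured genes in input (left) and HA (right), with 1 point per pool and colour and shape for age and pool. Dcp1a and Btg4 lie above 200 CPM per kb in every library, and the widest spread is that of Cnot6 in HA, where both old pools lie below both young pools.

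The comparison the design is built for is old against young, in total RNA, in ribosome-bound RNA, and in their ratio, called translational efficiency (TE, HA CPM over input CPM of the same pool). It was tested with limma on log2(CPM + 1), a scale that understates the change of low genes. No gene of the 9 passed an adjusted p of 0.05 in any of the 3. Over all genes the share that did was 0.0095% in input, 0% in HA and 0% in TE. At an unadjusted p under 0.05, limma gave 0 of the 9 genes in input, where 6.18% of all genes reached it, 2 in HA (Pan2 and Dcp1a), where 14.7% did, and 1 in TE (Dcp1a), where 6.49% did. On the recovered reads, edgeR's quasi-likelihood and likelihood ratio tests and DESeq2 also gave 0 of the 9 adjusted, in input and in HA. Over all genes these tests, in that order, gave 0, 50 and 112 of 10530 adjusted in input. In HA they gave 0, 295 and 497 of 8898 adjusted. Unadjusted they gave 0 of the 9 in input, where they gave 5.51% to 9.21% of all genes. In HA, where they gave 13.5% to 16.3% of all genes, both edgeR tests gave Pan2 and Dcp1a unadjusted, but DESeq2 gave Pan2 and Cnot6. Limma without the trend gave other genes too, Cnot6 and Cnot8 in HA (11.1% of all genes) and Cnot6 in TE (7.54%), and neither Pan2 nor Dcp1a.

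The counts also turned on single pools, and the share of all genes moved with them. The HA count was 1 without young pool 1 (11.9% of all genes), 0 without young pool 2 (12.2%) and 4 without old pool 1 (26.1%). The TE count was 0 without young pool 2 (0.715%), 3 without old pool 1 (25.2%) and 2 without old pool 2 (19.1%), where the 2 were Zfp36l2 and Pan2 and not Dcp1a. The input count was 1, Pan2, without old pool 1 (11.1%). With 2 pools against 2, the smallest two-sided p of an exact permutation test is 0.333, and none was run gene by gene.

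Values of old and young pools did not overlap in 4 of the 9 genes in input, all 4 with old higher, against 35.3% of all genes (16.4% with old higher and 18.9% lower). In HA this held for 6 of the 9 genes, 5 with old higher and 1 with old lower, against 41.9% (17.2% higher and 24.7% lower), and in TE for 4, 3 with old higher and 1 lower, against 39.4% (16.7% higher and 22.8% lower). The median log2 difference of the 9 genes was 0.15 in input, 0.49 in HA and 0.49 in TE, beside −0.03, −0.14 and −0.10 for all genes. With 10 CPM required in at least 2 libraries, or as a mean, the TE median was 0.13, beside 0.10 and 0.13 for all genes. The HA median was then 0.45, beside 0.09 and 0.18, and the input median 0.20, beside 0.04 and 0.05.

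These directions depend on how the HA libraries are scaled. When libraries were brought to equal sums instead of TMM, the median of all genes moved by −0.55 in HA, −0.38 in TE and −0.17 in input, and the median of the 9 genes in HA became −0.15. The genes without overlap were then 1 higher (Btg4) and 1 lower (Cnot1) in old input, 3 higher (Cnot8, Dcp1a and Pan2) and 2 lower (Cnot6 and Cnot6l) in HA, and 2 higher (Cnot8 and Dcp1a) and 2 lower (Cnot6 and Cnot6l) in TE. Measured from the median of all genes, the HA difference was above it in 8 of the 9 genes with the deposited scaling, 7 with equal sums, 8 with the median log2 ratio and 4 with quantile normalization. Cnot6 stayed below and Pan2, Dcp1a, Cnot8 and Zfp36l2 above it under these 4 scalings, while Btg4, Cnot1 and Cnot6l were above it under 3 and below it with quantile normalization.

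**Figure D2:**
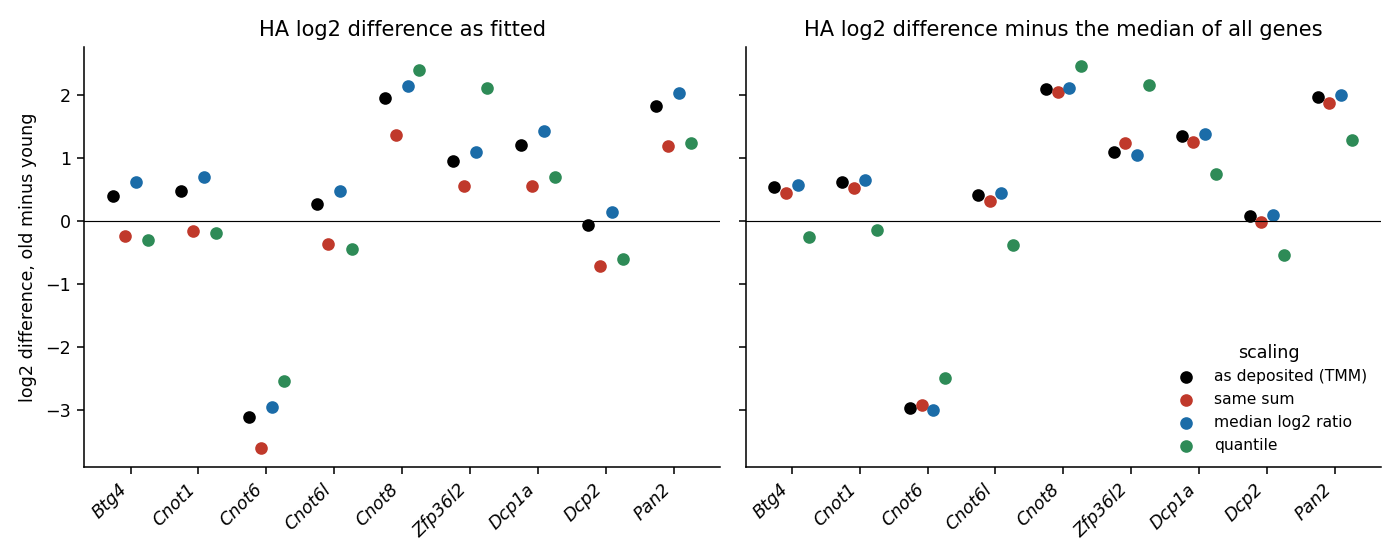
HA log2 difference (old minus young) of the 9 measured genes under 4 scalings of the libraries, as fitted (left) and minus the median of all genes (right), with 1 point per scaling. Btg4, Cnot1 and Cnot6l cross 0 on the left with equal sums and with quantile normalization, and on the right with quantile normalization alone, whereas Cnot6 stays below and Pan2, Dcp1a and Cnot8 stay above 0 in both panels.

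Btg4, the adaptor, was abundant in total RNA at both ages and its TE did not separate them. Its input level was 690 and 602 CPM in the young pools and 849 and 896 CPM in the old pools. The old pools were thus both higher, by 0.43 on the log2 scale (SE 0.23, limma adjusted p = 0.783), with a 95% interval from −0.08 to 0.95. In HA it was at 581 and 707 CPM in the young and 991 and 732 CPM in the old pools, a log2 difference of 0.41 (SE 0.38, adjusted p = 0.756). Old pool 2 exceeded the higher young pool by little there. The TE was 0.841 and 1.17 in young and 1.17 and 0.817 in old pools, so that the ages covered the same range, and the log2 difference of −0.03 had a 95% interval from −1.01 to 0.95. That interval still allows a fold between 0.498 and 1.94. Btg4 lies on chromosome 9, plus strand, and 17.4% of its exon bases lie inside the spans of other genes, among them Layn, where counting that ignores strand cannot tell the genes apart.

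Cnot6l and Cnot6 encode interchangeable nuclease subunits, and Cnot6l was by far the more abundant. Cnot6l was at 607 and 656 CPM in the young and 676 and 724 CPM in the old input, and at 596 and 698 CPM in the young and 770 and 796 CPM in the old HA libraries. Its TE was 0.982 and 1.06 in young and 1.14 and 1.10 in old pools. In all 3 measures the old pools were higher without overlap, yet the log2 differences were small, 0.15 in input (adjusted p = 0.959), 0.28 in HA (adjusted p = 0.837) and 0.13 in TE (adjusted p = 0.958). With equal sums the signs of all 3 turned.

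Cnot6 showed the largest log2 difference of the 9 genes in HA and in TE, and a downward one. Without old pool 2, Zfp36l2 (2.29) and Cnot8 (2.22) exceeded it in size in HA (−2.21). With quantile normalization Zfp36l2 (2.66) did so in TE (−2.26). In input the Cnot6 level overlapped between the ages, at 16.2 and 32.9 CPM in young and 26.7 and 13.5 CPM in old pools. In HA it was at 31.5 and 23.7 CPM in young pools (2435 and 1343 reads) but at 5.13 and 0.776 CPM in old pools (216 and 21 reads). Both old pools were thus below both young pools, and in ratio they differed from each other by more than the young pools did. The TE was 1.95 and 0.72 in young and 0.192 and 0.0577 in old pools. On the log2 scale the old pools were lower by 3.10 in HA (SE 1.52, adjusted p = 0.418) and by 2.83 in TE (SE 1.52, adjusted p = 0.739), and the 95% interval in HA ran from −6.71 to 0.51. Per length, Cnot6l exceeded Cnot6 24.1-fold and 12.8-fold in young and 16.2-fold and 34.5-fold in old input, and 12.1-fold and 18.9-fold in young but 96.2-fold and 658-fold in old HA. The coding sequences of the 2 genes, 1674 and 1668 bases long, are 73.3% identical over their alignment, with no shared run of 36 bases, the shortest read kept.

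Cnot1, the scaffold, was even in total RNA, at 529 and 498 CPM in young and 496 and 527 CPM in old pools. Its HA level was 425 and 490 CPM in young and 440 and 930 CPM in old pools, with old pool 2 above the other 3. The log2 difference was 0.49 (SE 0.48, adjusted p = 0.768), and −0.05 without that pool.

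Cnot8 encodes the paralog of the absent Cnot7, and the coding sequences of the pair are 70.9% identical, again with no shared run of 36 bases. In annotation 78.5% of the exon bases of Cnot7 lie within the spans of Vps37a and Zdhhc2. Cnot8 was low in input, at 6.46 and 4.55 CPM in young and 13.3 and 2.47 CPM in old pools, with old pool 1 highest and old pool 2 lowest. In HA it was at 10.3 and 5.38 CPM in young pools (798 and 305 reads) and at 38.7 and 26.5 CPM in old pools (1627 and 717 reads), without overlap. The log2 difference in HA was 1.96 (SE 1.29, adjusted p = 0.602). The TE was 1.6 and 1.18 in young and 2.9 and 10.7 in old pools, and the 10.7 rested on the lowest input value of the gene, 123 reads.

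Zfp36l2 had the lowest mean level of the 9 genes per length in both tables. Its input level was 3.7 and 11 CPM in young and 2.06 and 5 CPM in old pools, and its HA level 1.91 and 1.69 CPM in young and 12.7 and 1.18 CPM in old pools. Old pool 1 was the highest in HA and old pool 2 the lowest, so the ages overlapped, and without old pool 1 the HA log2 difference went from 0.96 to −0.36. An annotated antisense gene spans 48.3% of its exon bases, and the effect of that on its level per length was not tested.

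**Figure D3:**
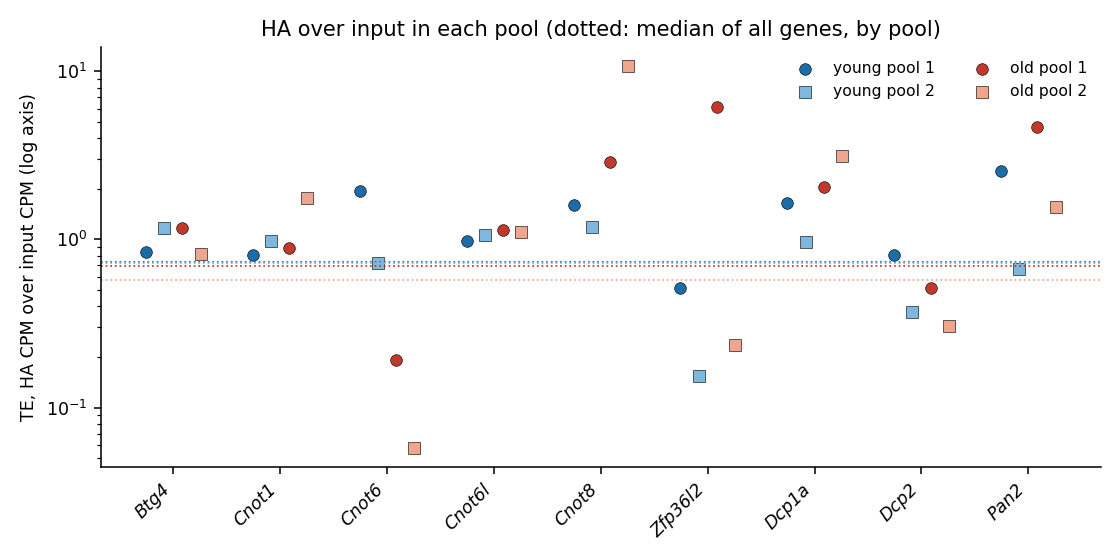
TE (HA CPM over input CPM, log axis) of the 9 measured genes in each pool, with dotted lines for the median TE of all genes in that pool, 0.73 and 0.724 in young and 0.691 and 0.577 in old pools. Cnot6 lies below and Cnot6l, Cnot8 and Dcp1a lie above the young pools in both old pools, and Btg4, Cnot1, Zfp36l2, Dcp2 and Pan2 overlap.

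Dcp1a, the decapping activator, reached an unadjusted p under 0.05 in TE, but not without the trend, where Cnot6 did. Its input level was 2473 and 2690 CPM in young and 2911 and 2999 CPM in old pools, a log2 difference of 0.20 (SE 0.20, adjusted p = 0.922). In HA it was at 4053 and 2596 CPM in young and 6006 and 9441 CPM in old pools, hence higher in both old pools, by 1.21 on the log2 scale (SE 0.39, adjusted p = 0.297). The mean HA level of the old pools was 2.32 times that of the young pools. The TE was 1.64 and 0.965 in young and 2.06 and 3.15 in old pools, a log2 difference of 1.02 (SE 0.35, adjusted p = 0.739) with a 95% interval from 0.22 to 1.82. With equal sums the HA difference was 0.57 and with quantile normalization 0.71. Each was above the median of all genes, by 1.26 and 0.76. Leaving out old pool 1 gave an HA difference of 1.54. In that fit old pool 2 stands alone and is taken to vary like the young pools. Leaving out young pool 2 gave 0.89. Of its exon bases, 28% lie within the span of Cacna1d.

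Dcp2, the decapping enzyme on chromosome 18, showed no such pattern. Its input level was 240 and 238 CPM in young and 272 and 371 CPM in old pools, without overlap, with a log2 difference of 0.41 and a 95% interval from −0.24 to 1.06. In HA it was at 194 and 88.4 CPM in young and 139 and 113 CPM in old pools, so the old pools lay between the young ones, and the TE was 0.808 and 0.371 in young and 0.511 and 0.306 in old pools.

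Pan2, the nuclease of the PAN2-PAN3 complex, had the smallest p of the 9 genes in HA. Its HA level was 155 and 85.6 CPM in young and 469 and 362 CPM in old pools. Both old pools were higher, by 1.83 on the log2 scale (SE 0.52, adjusted p = 0.297), with a 95% interval from 0.59 to 3.07. With equal sums the difference was 1.19 and the adjusted p 0.371. In input it was at 60.8 and 129 CPM in young and 101 and 232 CPM in old pools, which overlapped, as did the TE, at 2.54 and 0.665 in young and 4.66 and 1.56 in old pools. Within each age the pool with the lower input had the higher HA value. The TE difference of 1.05 had a 95% interval from −0.93 to 3.03.

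**Figure D4:**
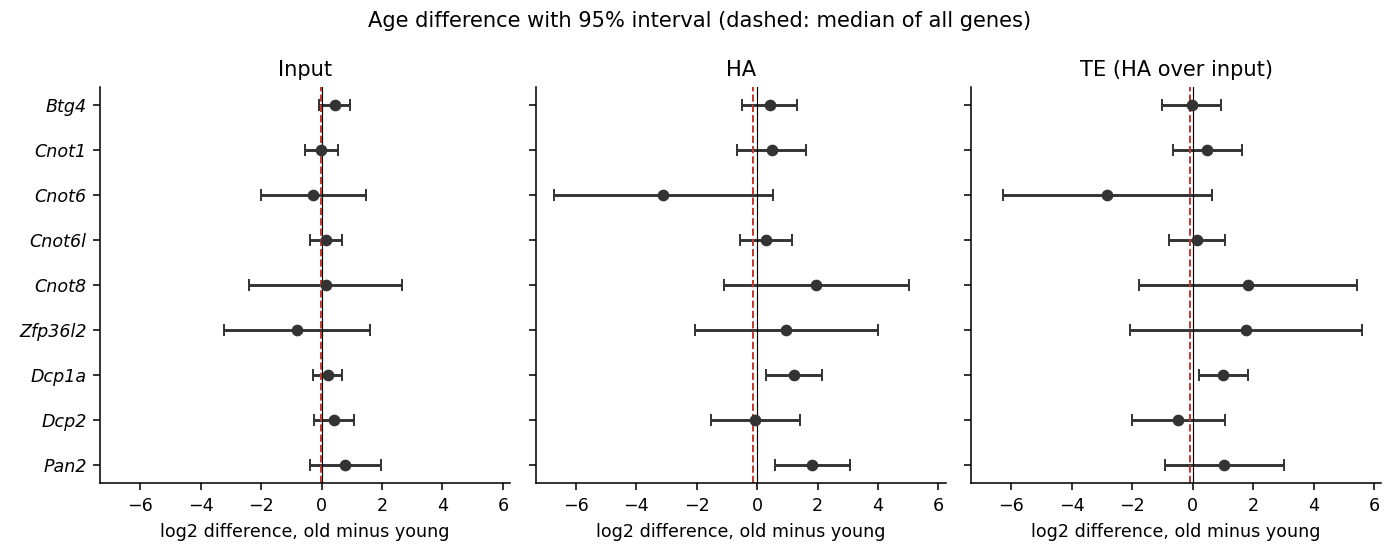
Log2 difference (old minus young) of the 9 measured genes in input, HA and TE, with points for the limma estimate, bars for its 95% interval and a dashed line for the median of all genes. The intervals of Pan2 and Dcp1a in HA and of Dcp1a in TE lie above 0, the other intervals include 0, and the intervals of Cnot6, Cnot8 and Zfp36l2 are the widest in each panel.

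Other genes of mRNA decay were read from lists of 82 genes, of which 64 were in the input table and 63 in the HA table. In HA, 8 of the 63 were higher and 6 lower in old oocytes at an unadjusted limma p under 0.05, none after adjustment, while over all genes 4.28% were higher and 10.5% lower. Of the 8898 genes listed for HA, 8726 reached 1 CPM in at least 2 libraries. Among the lower, Lsm1, Lsm3, Nudt16, Dis3l2 and Tut1 did so only through the young pools. Wdr61, among the higher, did so only through the old pools. These counts are thus not independent of which genes are listed. The median log2 difference of the 63 was −0.09. In sign alone, 29 lay above and 34 below 0. In input the counts at that p were 5 higher and 1 lower of 64, against 2.71% and 3.48% of all genes, and in TE 5 higher and 3 lower of 60, against 2.98% and 3.51%. With equal sums 1 was higher and 10 were lower in HA (1.26% and 14.4% of all genes), 3 and 3 in input (1.7% and 5.1%) and 0 and 5 in TE (1.25% and 5.51%). With quantile normalization 2 were higher and 4 lower in HA (2.84% and 2.58%), 5 and 1 in input (2.86% and 2.87%) and 1 and 4 in TE (2.44% and 2.99%). With the median log2 ratio 10 were higher and 5 lower in HA (5.62% and 9.43%). The counts were then 5 and 1 in input (2.85% and 3.3%) and 6 and 2 in TE (4.13% and 2.86%). The directions given for these genes hold for the deposited scaling and not for every other one.

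Of 6 measured genes listed as other deadenylases or Pan2 partner, 4 lay above and 2 below 0 in HA. At an unadjusted limma p under 0.05, 3 were higher and 0 lower, beside 4.28% and 10.5% of all HA genes. Noct, of the CCR4 nuclease family, was at 367 and 408 CPM in young and 960 and 882 CPM in old HA libraries (log2 difference 1.25, SE 0.37, adjusted p = 0.297), with an even input of 328 and 324 against 399 and 327 CPM. Pan3, the partner of Pan2, was higher in old pools in both tables, at 310 and 533 against 828 and 974 CPM in input (adjusted p = 0.778) and 685 and 908 against 1223 and 2394 CPM in HA (adjusted p = 0.322). Its TE was 2.21 and 1.7 in young and 1.48 and 2.46 in old pools, so that the ages overlapped. The third was Angel2, named here because it completes the count. Parn was at 23.7 and 25.5 CPM in young and 50.6 and 2.7 CPM in old pools, so that the old pools lay on both sides of the young ones.

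Of the other CCR4-NOT subunits 5 of 6 were measured, Cnot9 being in neither table, and none had an unadjusted p under 0.05 in HA. Cnot2 and Cnot3 form the NOT module with Cnot1. Cnot2 was higher in old input, at 148 and 131 against 321 and 233 CPM (adjusted p = 0.778), and at 144 and 155 against 188 and 785 CPM in HA. Cnot3 overlapped in both tables. Cnot10, which binds the N-terminal part of Cnot1, moved in opposite directions in the 2 tables: its input was 11.8 and 7.73 CPM in young and 44.3 and 29 CPM in old pools, and its HA level 21.1 and 8.69 CPM in young and 2.21 and 0.813 CPM in old pools. Its TE log2 difference was −4.40 (SE 1.54, adjusted p = 0.739). The other BTG and TOB adaptors held no such p in either table. Tob2 was at 158 and 126 CPM in young and 56.5 and 57 CPM in old HA libraries (adjusted p = 0.389), and Btg2 stayed under 10 CPM in HA.

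Among 12 measured decapping and P-body genes in HA, 1 was higher and 4 were lower at an unadjusted p under 0.05, beside 4.28% and 10.5% of all HA genes. Patl1, a scaffold that links deadenylation to decapping, was at 41.7 and 35.7 CPM in young and 191 and 204 CPM in old HA libraries (log2 difference 2.33, SE 0.61, adjusted p = 0.297), and at 36.9 and 56 against 170 and 129 CPM in input (adjusted p = 0.778). The 4 lower genes were Lsm1, Lsm3, Nudt16 and Patl2, the last 3 named to complete the count, and all were low. Lsm1, Lsm3 and Nudt16 reached 1 CPM in HA only in the young pools. Their being listed thus rests on the age where they are high. Lsm1, of the ring that binds shortened tails, had 419 and 423 reads in young but 2 and 0 reads in old HA libraries, whereas its input overlapped. Edc4, the decapping scaffold, was at 439 and 255 against 670 and 651 CPM in HA (adjusted p = 0.367), and Ddx6, the P-body helicase, at 13.4 and 15.7 against 65.9 and 18.4 CPM. Dcp1b, the paralog of Dcp1a, was in the input table only, with 514 and 61 reads in young and 2 reads in each old pool (adjusted p = 0.778).

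Of 15 measured exonuclease and exosome genes in HA, 2 were higher and 1 was lower at an unadjusted limma p under 0.05. Over all HA genes 4.28% were higher and 10.5% lower at that p. Xrn1, the cytoplasmic exonuclease that follows decapping, was at 89 and 93.2 CPM in young and 139 and 119 CPM in old libraries (adjusted p = 0.81). Xrn2, its nuclear counterpart, was at 309 and 343 against 868 and 614 CPM (adjusted p = 0.300), and Wdr61, named to complete the count, was the other. Dis3l2, which degrades uridylated RNA, had 456 and 773 reads in young and 0 reads in both old HA libraries, while its input had 201 and 1 reads in young and 143 and 1 reads in old pools. Among uridylyl transferases Tut1 was at 8.06 and 1.87 against 0.238 and 0.111 CPM in HA (adjusted p = 0.315) and Tut7 overlapped.

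At an unadjusted limma p under 0.05 in HA, 1 of 6 genes of poly(A)-binding proteins was higher and 0 were lower. Of 13 genes of RNA-binding proteins that recruit CCR4-NOT, 1 was higher and 0 were lower at that p. Over all HA genes 4.28% were higher and 10.5% lower. Paip1, a partner of poly(A)-binding protein, was at 328 and 346 against 725 and 839 CPM (adjusted p = 0.297) with an overlapping input. Pabpc1l, the oocyte form of poly(A)-binding protein, was at 35.2 and 25.1 CPM in young and 66 and 0.222 CPM in old HA libraries, so that the old pools lay on both sides of the young ones, and Pabpn1l was in neither table. Rc3h1, a stem-loop binder, was at 39.5 and 18.5 against 112 and 121 CPM (adjusted p = 0.313), and Ythdf2, a reader of methylated adenosine, at 16.7 and 41.5 against 3.49 and 0.924 CPM (adjusted p = 0.391). Cpeb1, whose protein binds CPEs, was at 423 and 251 CPM in young and 229 and 151 CPM in old HA libraries, lower in both old pools by 0.80 on the log2 scale (SE 0.51, adjusted p = 0.583), and overlapped in input.

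**Figure D5:**
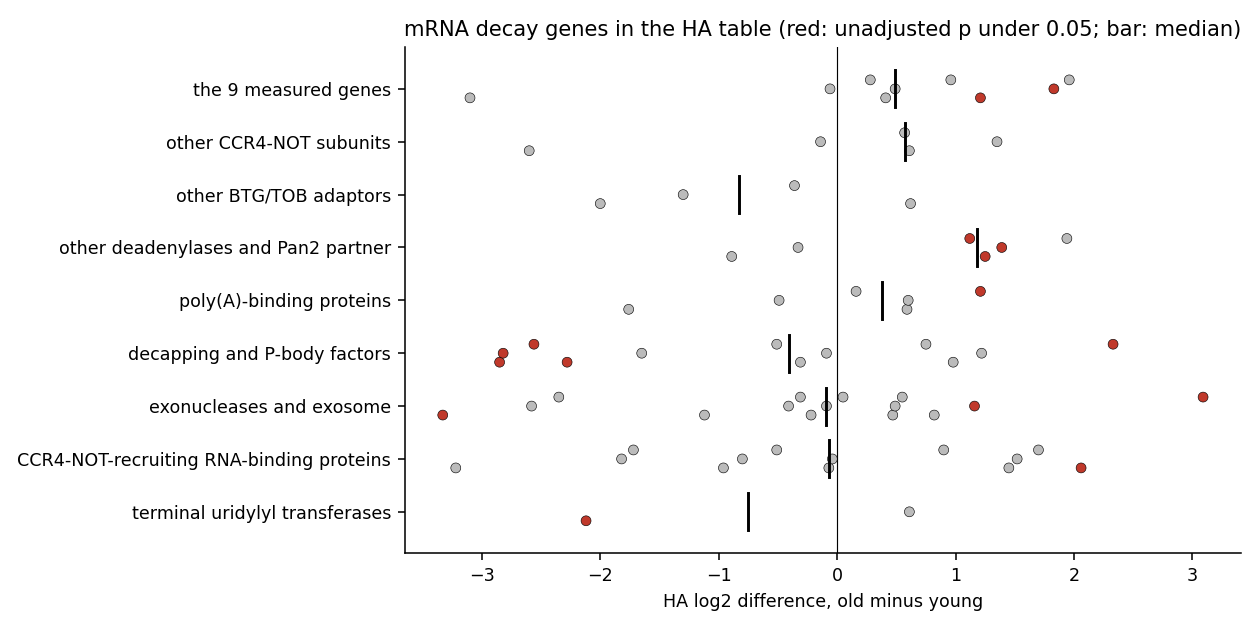
HA log2 difference (old minus young) of each measured mRNA decay gene, 1 row per list, with red points for an unadjusted limma p under 0.05 and a black bar for the median of the list. In the top row the 2 red points are Dcp1a and Pan2 and the leftmost is Cnot6, and in the other rows 8 red points lie above and 6 below 0.

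Across the 8 libraries, the genes whose log2 level was most like that of Btg4 were Rubcn (Pearson r 0.930), Gm12475 (0.896) and Atp6v1e1 (0.890), out of 5305 genes with a mean of at least 10 CPM in each table. Rubcn ranged from 545 to 851 CPM. Among the genes described here r was 0.665 for Cnot6l, 0.492 for Pan2, 0.230 for Dcp1a, 0.094 for Dcp2, −0.001 for Cnot1 and −0.406 for Cnot6. These are descriptions over libraries that share lysates and scaling.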

How the data were processed

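RNA-Seq libraries (Ovation RNA-Seq V2) were trimmed (Trimmomatic 0.36) and aligned to GRCm38 (HISAT2) by the authors. Reads were counted over gene features without regard to strand (HTSeq). The deposited values are a CPM signal, TMM-scaled separately for HA and input. The stated filter of 10 CPM in 2 libraries was met by 5642 of 8898 HA and 6775 of 10530 input genes. All per-sample columns were used. Every value was a whole multiple of the CPM of 1 read (tolerance 0.01 reads), and these reads served the edgeR and DESeq2 alternatives. The main test was a two-sided limma fit (lmFit, then eBayes with a trend) of log2(CPM + 1) in 2 old and 2 young pools. The p-values were adjusted by Benjamini-Hochberg across the table. The fit was also run on simulated reads, for the HA genes only. TE was log2(HA CPM + 1) − log2(input CPM + 1) per pool. The genes and lists were chosen with earlier results of these data known. Named genes were the 10, in each other list the gene with the smallest HA p in each direction, 11 fixed ones (Cnot2, Cnot3, Cnot9, Pan3, Dcp1b, Edc4, Ddx6, Xrn1, Pabpn1l, Pabpc1l, Cpeb1) and the 3 most like Btg4. Coding sequences stood in for the planned protein alignment. Annotation and 3′-UTRs were from GENCODE M21 (99.7% of HA identifiers matched). Software was DESeq2 1.42.0, edgeR 4.0.16 and limma 3.58.1 in R 4.3.3, and Biopython 1.88 in Python 3.11.15.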

Additional observations from a re-analysis of the deposited data

Results flagged for a closer look

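The age difference of Dcp1a was larger in HA than in input: the test of that difference, which is the TE test, gave a log2 value of 1.02 (SE 0.35), and both old pools were higher than both young pools. The limma p was under 0.05 before adjustment and did not pass adjustment over the 8537 genes tested (adjusted p = 0.739), and 6.49% of those genes reached an unadjusted p under 0.05. Over the alternatives the adjusted p ran from 0.0865 to 1 and the log2 value from 0.57 to 1.40. In an edgeR quasi-likelihood interaction on the recovered reads the value was 1.02 with an adjusted p of 0.44. The unadjusted p was no longer under 0.05 with equal sums, in limma without the trend or with the trend over the mean log2 TE, without young pool 2 and without old pool 2.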

How the results depend on the processing

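With libraries brought to equal sums, the median log2 difference of the 9 genes turned to −0.03 in input and −0.15 in HA and was 0.04 in TE, and 1 gene in HA, Cnot6 and not Pan2 or Dcp1a, and 0 in TE had an unadjusted p under 0.05 (15.7% and 6.76% of all genes). Differences that turned were Cnot6l −0.04 and Cnot8 −0.03 in input, Btg4 −0.23, Cnot1 −0.15 and Cnot6l −0.36 in HA, and Cnot6l −0.32 in TE. Quantile normalization gave medians of 0.00, −0.18 and −0.02, and turned Cnot6l to −0.00 in input, Btg4 to −0.29, Cnot1 to −0.18 and Cnot6l to −0.43 in HA, and Cnot1 to −0.02 and Cnot6l to −0.43 in TE. The median log2 ratio gave medians of 0.70 in HA and 0.68 in TE and turned Cnot1 in input to 0.02, Dcp2 in HA to 0.15 and Btg4 in TE to 0.16. Filters of 10 CPM, which drop Cnot8 and Zfp36l2 in input and TE, gave medians of 0.20 in input and 0.13 in TE, and the edgeR and DESeq2 fits gave 0.20 in input. A trend over the mean log2 TE, chosen after seeing the data, left 0 genes in TE (6.56% of all genes).

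Leaving out 1 pool, the count at an unadjusted p under 0.05 ran from 0 to 1 in input (2.88% to 11.1% of all genes), 0 to 4 in HA (11.9% to 26.1%) and 0 to 3 in TE (0.715% to 25.2%), and the median from 0.14 to 0.22, 0.30 to 0.63 and 0.11 to 0.35. Differences that turned ran from −0.05 to 0.04 for Cnot1, −0.76 to 0.22 for Cnot6 and −0.89 to 1.15 for Cnot8 in input, from −0.05 to 1.03 for Cnot1, −0.36 to 2.29 for Zfp36l2 and −0.62 to 0.50 for Dcp2 in HA, and from −0.28 to 0.23 for Btg4, −0.00 to 0.99 for Cnot1, −0.04 to 3.58 for Zfp36l2 and −1.03 to 0.09 for Dcp2 in TE.

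Old and young pools with the same number share only that number. Their deviations correlated at 0.079 in HA and 0.027 in input, and a replicate block left the counts at 0, 2 and 1 and the medians at 0.15, 0.49 and 0.49. With 2 pools an age, these data limit what can be called: no alternative that kept every pool passed any of the 9 genes after adjustment. The causes were not tested.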

Other observations

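The GW182 genes, whose proteins bring CCR4-NOT to microRNA targets, were not named by the rule and are given here after their values were seen. Tnrc6c was at 276 and 290 CPM in young and 197 and 184 CPM in old input but at 80 and 28.3 CPM in young and 166 and 116 CPM in old HA libraries, so that old pools were lower in input and higher in HA. Its TE was 0.29 and 0.0977 in young and 0.842 and 0.631 in old pools, a log2 difference of 2.09 (SE 0.77, adjusted p = 0.739). Tnrc6b had a TE of 0.611 and 0.607 in young and 1.47 and 1.55 in old pools (log2 difference 1.31, SE 0.50, adjusted p = 0.739). Tnrc6a was at 0.958 and 0.171 in young and 0.0622 and 0.0575 in old pools, in the other direction (log2 difference −2.41, SE 1.54, adjusted p = 0.758).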
